A study of Mus musculus with 4 samples.

Results

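The genes described here are those of the DNA replication machinery: 36 genes of G1/S control, origin licensing, the replicative helicase, the polymerases, the sliding clamp, deoxynucleotide supply and chromatin assembly, listed by name. Of these, 35 of the 19505 genes on the value table could be read, each through 1 probe set, and Mcm7 was not analysed here. Total RNA from hearts of ICR (Jcl:ICR) mice was hybridised to Clariom S arrays, 1 for each of 4 groups. Pups received, at postnatal day 1, either a viral vector for Tbx6, a T-box transcription factor of early mesoderm, or phosphate-buffered saline (PBS), and hearts were taken 7 or 30 days later. The growth protocol describes a subcutaneous dorsal injection, whereas the sample names speak of introduction into the heart. The control is saline and not an empty vector, so the vector and the gene cannot be told apart. The sources used here do not give the number of hearts per RNA sample, their sex or the promoter of the vector.

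Before each round of DNA synthesis, cyclin E with Cdk2 releases the E2F factors, and the origin recognition complex with Cdc6 and Cdt1 loads the MCM helicase onto origins. Cdc45 and the GINS complex then activate that helicase, and primase, the polymerases and the sliding clamp copy the strands while ribonucleotide reductase and thymidylate synthase supply the precursors. Many of these genes are transcribed mainly in cycling cells as targets of E2F. In the mouse heart, muscle cells leave the cell cycle soon after birth, while endothelial cells, fibroblasts and blood-derived cells can still divide.

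The values are log2 expression per probe set. Each array carries 23 background probe sets, and the brightest of them read 5.77 to 6.05 on the 4 arrays. A gene reading no higher than that is called at background here. Where 1 reading of a pair is at background, that reading is raised to the background value and the difference is a bound. Of the 35 genes, 7 were above background on all 4 arrays, 13 on 1 to 3 arrays and 15 on none. On the arrays of day 7, 20 genes were above background after PBS and 16 after Tbx6, and at day 30 the numbers were 7 and 10. Over all genes the share above background ranged only from 42.8% to 45.6% between arrays, array medians ranged from 5.30 to 5.34, and Pearson correlations across the 9753 tested genes were 0.985 and 0.989 within a day and 0.9355 to 0.9409 between days. The labelled tissue was checked on its markers: all 8 cardiomyocyte genes were above background on every array, with mean levels of 18.5 for each. Tbx6 itself read 3.70, 4.14, 3.57 and 3.66 on the arrays of PBS and Tbx6 at day 7 and PBS and Tbx6 at day 30. All of these readings were at background, so its probe set does not check the labels.

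**Figure D1:**
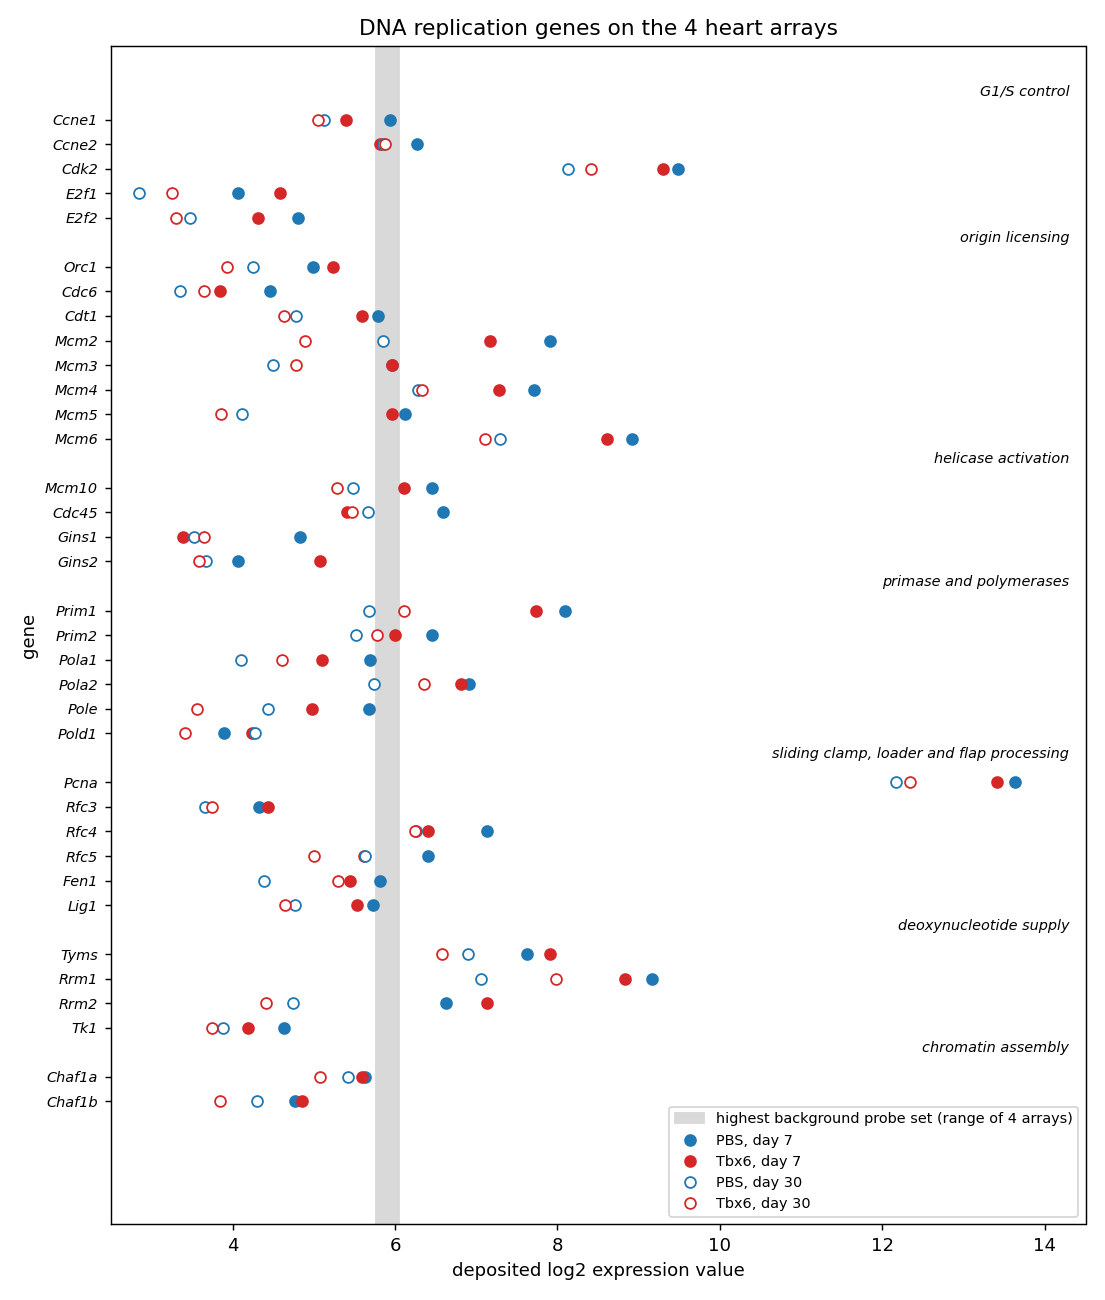
Deposited log2 expression value (horizontal axis) of each of the 35 genes (vertical axis, grouped by role). Filled circles are the day 7 arrays, open circles the day 30 arrays, blue is PBS, red is Tbx6, and the grey band spans the highest background probe sets of the 4 arrays. The day 30 readings lie left of the day 7 readings for most genes, and 15 genes lie at background on every array.

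Promoter sequence was examined because many of these genes are known E2F targets. Another reason was that 31 of the 35 read lower at day 30 than at day 7 after both injections, readings at background included. RefSeq promoter windows of build GRCm38.p6, from 250 bases before to 50 after each start, were found for 29 of the 35 genes (33 windows). They were searched on both strands for the letters TTTCCCGC, TTTGGCGC, TTTCGCGC and TTTGCCGC, which together spell a common E2F consensus and can overlap each other on opposite strands. At least 1 match lay in the windows of 12 of the 29 genes, and 36.4% of their windows held one, against 2.265% of all 32851 windows of the same length, 2.94% of the 19143 windows of genes on the array and 27.0% of the 37 windows of the other replication genes described further on. The median GC content was 57.7% in these windows, 52.7% in all windows, 57% in those of genes on the array and 62.3% in those of the other replication genes. The CCAAT letters, also searched on both strands, were in 51.5% of these windows and in 37.4% of all windows. A match is a string of letters and not a binding site. Because many of the genes were already known as E2F targets, the share of matches does not bear on the change between days. Sequences of 250 bases before the start are given for Mcm6 (chr1:128359706-128359955, minus strand), Mcm5 (chr8:75109259-75109508, plus strand) and Cdk2 (chr10:128705052-128705301, minus strand), in which capitals mark E2F letters. Rrm2 (chr12:24708004-24708253, plus strand) and Prim1 (chr10:128014965-128015214, plus strand), shown for contrast, held no E2F letters in their windows, and capitals mark CCAAT.
Mcm6: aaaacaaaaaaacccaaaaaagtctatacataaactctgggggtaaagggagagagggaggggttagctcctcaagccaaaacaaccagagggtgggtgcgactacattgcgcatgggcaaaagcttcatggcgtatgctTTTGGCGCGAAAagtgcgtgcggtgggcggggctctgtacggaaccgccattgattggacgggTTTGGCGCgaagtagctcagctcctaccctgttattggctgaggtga
Mcm5: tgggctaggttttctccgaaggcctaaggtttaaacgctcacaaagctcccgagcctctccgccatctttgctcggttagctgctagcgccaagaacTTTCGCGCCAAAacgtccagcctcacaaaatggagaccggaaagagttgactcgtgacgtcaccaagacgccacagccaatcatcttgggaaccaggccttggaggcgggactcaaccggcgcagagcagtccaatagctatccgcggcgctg
Cdk2: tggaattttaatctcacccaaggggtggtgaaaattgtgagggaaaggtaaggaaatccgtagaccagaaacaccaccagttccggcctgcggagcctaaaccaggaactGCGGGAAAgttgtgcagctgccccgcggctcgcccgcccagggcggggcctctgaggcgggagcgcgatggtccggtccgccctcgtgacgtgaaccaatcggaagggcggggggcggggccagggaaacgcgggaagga
Rrm2: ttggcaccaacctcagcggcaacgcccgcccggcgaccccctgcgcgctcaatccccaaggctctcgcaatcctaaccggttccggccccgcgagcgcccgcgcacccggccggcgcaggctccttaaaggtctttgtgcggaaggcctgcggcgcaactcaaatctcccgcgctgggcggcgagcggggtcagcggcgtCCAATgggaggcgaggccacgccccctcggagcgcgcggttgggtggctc
Prim1: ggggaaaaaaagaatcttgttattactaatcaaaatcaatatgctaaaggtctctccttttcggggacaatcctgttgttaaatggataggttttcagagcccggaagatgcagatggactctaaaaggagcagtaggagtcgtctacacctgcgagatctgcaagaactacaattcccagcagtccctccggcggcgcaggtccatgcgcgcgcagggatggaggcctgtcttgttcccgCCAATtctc

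In Mcm6 the matches began 110, 106 and 47 bases before the start, the first pair overlapping on opposite strands. Mcm5 held an overlapping pair that began 153 and 149 bases before the start, and Cdk2 a match on the opposite strand that began 140 bases before it. The 12 genes with a match had a median log2 change of -1.03 from day 7 to day 30 and the 17 without had -0.81, with ranges of -2.06 to -0.23 and -2.30 to -0.36. The ranges overlap. Of the genes with matches 8 were at background on every array, so the medians are a description only.

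The comparison of days asked how replication genes changed between 7 and 30 days after injection. It was read in 2 pairs of arrays that share none, the PBS pair and the Tbx6 pair, and tested with an additive limma model of day and injection over the 9753 genes whose mean was at or above 5.30. Of the 35 genes, 19 passed this filter. Ccne1 (mean 5.38) and Mcm3 (5.30) lay just inside it and Fen1 (5.24) just outside. Of the 19, 11 fell, 0 rose and 8 did not pass the test at an adjusted p of 0.05. Over all tested genes 12.1% were called lower and 14.2% higher. The filter uses the mean over all arrays, which a gene can pass through its day 7 readings alone, so the count describes the tested genes and not the whole set. Over all 35 genes the median change was -0.94, against -0.03 over all 19505 genes. It was 0.00 with every reading below 6.05, the highest background of any array, raised to that value. There the 15 genes at background on every array cannot differ, nor can Ccne1, Mcm3 and Fen1, which read below 6.05 on every array. Of the 35, 31 were lower at day 30 in both pairs by any amount, as were 34.7% of all genes. Of the 16 genes above background on both day 7 arrays, 6 were at background on both day 30 arrays (Mcm2, Mcm3, Mcm5, Mcm10, Prim2 and Rrm2), where 4.04% of all 8557 genes of that kind were. Nothing is read from this share, since the 16 were chosen by their day 7 readings and several lay just over background there, such as Mcm3 at 5.97 and Mcm5 at 5.96. The model leaves 1 residual degree of freedom, and its standard errors (SE) are drawn mostly from other genes. With 1 array left out in turn and day as the only term, 7 to 12 of the 19 passed, the fewest without the PBS array of day 30.

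Of 8 origin licensing genes on the arrays, 4 passed the filter and all 4 were called lower, where 12.1% of all tested genes were. Mcm2 and Mcm3 of these were at background at day 30. The filter admits genes through their day 7 readings, so nothing is read from the count. Mcm2, Mcm3, Mcm4, Mcm5 and Mcm6 are subunits of the ring-shaped helicase that licensing places on DNA. Mcm2 read 7.91 (PBS) and 7.17 (Tbx6) at day 7, and was at background at day 30, with readings of 5.85 and 4.90. It fell (fitted log2 change -2.17, SE 0.24, adjusted p 0.000542), and the bounds were -1.86 in the PBS pair and -1.35 in the Tbx6 pair. Mcm6 read 8.92 and 8.61 at day 7 and 7.29 and 7.11 at day 30, above background throughout. Its fitted change of -1.56 (SE 0.24, adjusted p 0.00258) is 2.95-fold, the groups of 2 arrays do not overlap, and the pairs gave -1.63 and -1.49. Mcm4 read 7.71 and 7.28 at day 7 and 6.28 and 6.34 at day 30, and its 2.27-fold fall (adjusted p 0.0113) did not pass without either of the day 30 arrays. Mcm3 read 5.97 on both day 7 arrays and was at background at day 30 (4.50 and 4.78), with a fitted change of -1.33 (adjusted p 0.00584) while the bound was -0.15 in the Tbx6 pair and the PBS pair had none. Mcm5 had a mean too low for the test. It read 6.13 and 5.96 at day 7 and 4.11 and 3.86 at day 30, and in the fit without a filter its change was -2.06 (adjusted p 0.00136 over 19505 genes). Orc1, the ATPase of the origin recognition complex that cycles, and the loading factors Cdc6 and Cdt1 were at background on all 4 arrays, so no change was measured in them.

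Among the genes that switch on the licensed helicase, Mcm10, which helps to activate it, read 6.45 and 6.11 at day 7 and was at background at day 30 (5.49 and 5.29). Mcm10 fell by a fitted 0.90 on the log2 scale (SE 0.24, adjusted p 0.0276) and its bounds were -0.40 and -0.30. The call was lost under 5 of 12 other settings, among them readings raised to background (adjusted p 0.478). Cdc45, the partner that completes the helicase with GINS, exceeded background only in the PBS heart of day 7, at 6.59. Its Tbx6 reading of day 7 was 5.41, those of day 30 were 5.67 (PBS) and 5.47 (Tbx6), and its change of -0.43 (adjusted p 0.31) did not pass. Without the Tbx6 array of day 7 it was -1.03 (adjusted p 0.0348), and without the PBS array of day 7 it was 0.16. The GINS subunit genes Gins1 and Gins2 were at background on every array.

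Of the primase and polymerase genes, Prim1, the catalytic subunit of primase, had the clearest change. Prim1 read 8.09 and 7.73 at day 7, was at background after PBS at day 30 (5.68) and read 6.11 after Tbx6 at day 30. It fell by 2.02 in the fit (SE 0.28, adjusted p 0.00139, 4.04-fold), with differences of at least -2.04 in the PBS pair and -1.62 in the Tbx6 pair. Its partner Prim2 read 6.45 and 5.997 at day 7 and 5.52 and 5.78 at day 30, and its change of -0.57 did not pass (adjusted p 0.154). Pola2, the regulatory subunit of polymerase alpha, read 6.91 and 6.81 at day 7 and 5.74 and 6.36 at day 30, with a change of -0.81 that missed the threshold (adjusted p 0.0593). The catalytic subunit genes Pola1, Pole and Pold1, of the polymerases alpha, epsilon and delta, were at background on all arrays.

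Pcna, the sliding clamp that also serves DNA repair, was far above background on every array. Its readings were 13.63 (PBS) and 13.41 (Tbx6) at day 7, then 12.17 and 12.34 at day 30. It fell 2.41-fold (log2 change -1.27, SE 0.25, adjusted p 0.00789), by 1.46 in the PBS pair and 1.07 in the Tbx6 pair, without overlap between days. The clamp loader gene Rfc4 read 7.13 and 6.41 at day 7 and 6.26 and 6.24 at day 30, and did not pass (change -0.52, adjusted p 0.191). Its PBS reading of day 7 stood above the other 3, which lay close together. Rfc5, another loader subunit, was above background on that same array alone, at 6.41, with 5.62, 5.63 and 5.00 on the others (change -0.70, adjusted p 0.0645). Without the Tbx6 array of day 7 the change of Rfc5 was -1.10 (adjusted p 0.0486). Fen1, which trims the flaps between Okazaki fragments, read 5.82 on the PBS array of day 7, just above its background of 5.80, and lower elsewhere. Rfc3 and the ligase gene Lig1 were at background on all arrays.

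Of 4 genes of deoxynucleotide supply, 3 passed the filter and all 3 fell, where 12.1% of all tested genes were called lower. Here too the filter admits genes through their day 7 readings, so nothing is read from the count. Rrm2, the subunit of ribonucleotide reductase that is made for S phase, read 6.63 and 7.13 at day 7 and was at background at day 30 (4.75 and 4.42). Its fitted change was -2.30 (SE 0.28, adjusted p 0.000799), and its bounds were -0.58 in the PBS pair and -1.32 in the Tbx6 pair. Rrm1, the large subunit, which also serves the enzyme outside S phase, read 9.16 and 8.84 at day 7 and 7.05 and 7.98 at day 30. Rrm1 fell by 2.11 in the PBS pair and by 0.86 in the Tbx6 pair, a fitted 2.79-fold (SE of the log2 change 0.32, adjusted p 0.0119), and the call was lost without the PBS array of day 30 (adjusted p 0.0707). Tyms, thymidylate synthase, read 7.63 and 7.91 at day 7 and 6.89 and 6.57 at day 30, a 2.05-fold fall (adjusted p 0.0216) that was lost without either of the Tbx6 arrays (highest adjusted p 0.104). The salvage kinase gene Tk1 was at background throughout.

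In G1/S control, Cdk2, the kinase driven by cyclins E and A, fell 2.17-fold (log2 change -1.12, SE 0.26, adjusted p 0.014). It read 9.49 and 9.29 at day 7 and 8.13 and 8.41 at day 30, with no overlap between days, and passed in every fit but the 1 without the PBS array of day 30 (adjusted p 0.0702). The cyclin E genes stayed close to background: Ccne1 exceeded it on 1 array, PBS at day 7 (5.94), and Ccne2 read 6.27, 5.81, 5.85 and 5.88. Neither passed, with changes of -0.58 (adjusted p 0.125) and -0.18 (adjusted p 0.637). The activator genes E2f1 and E2f2 were at background on all arrays. So were Chaf1a and Chaf1b, of the assembly factor that places histones behind the fork. Chaf1a was tested and did not pass (change -0.36, adjusted p 0.31).

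**Figure D2:**
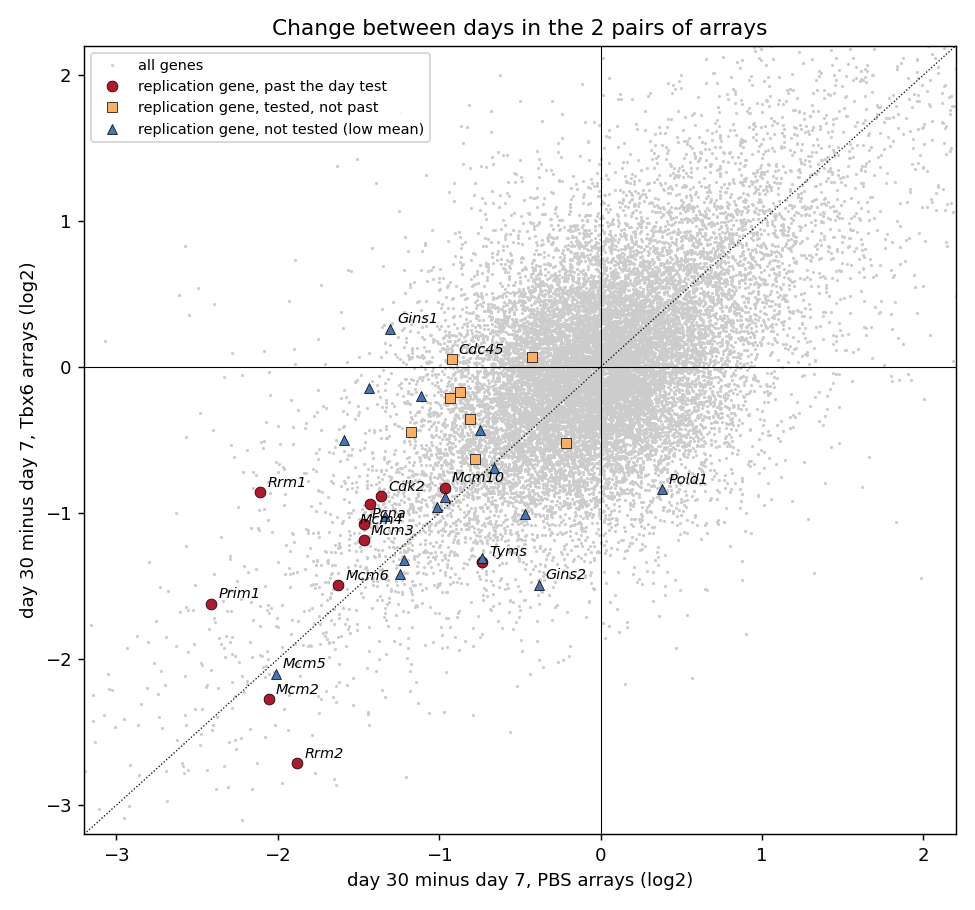
Log2 difference of day 30 minus day 7 on the PBS arrays (horizontal axis) and on the Tbx6 arrays (vertical axis) for all genes (grey dots; some lie beyond the axes) and for the 35 replication genes, by their result in the limma test of day. The dotted line marks equal change; 31 of the 35 lie below 0 in both pairs, and Pold1, Gins1, Cdc45 and Ccne2 do not.

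In the fit with no filter, over all 19505 genes, 17 of the 35 were called lower and 0 higher, where 5.33% of all genes were called lower. The 17 include E2f1, E2f2, Orc1, Cdt1, Pole and Lig1, which were at background on every array, so the size of their change was not measured. The 4 genes that were not lower in both pairs were Pold1 (0.38 and -0.84), Gins1 (-1.30 and 0.26), Cdc45 (-0.92 and 0.05) and Ccne2 (-0.43 and 0.07). Pold1 and Gins1 were at background throughout.

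Other genes around the fork were taken from lists not chosen for how they moved but written with earlier results of these data known. Of 20 tested replisome subunits outside the 36, 3 fell and 0 rose, a share of falls near the 12.1% of all tested genes. Rpa1, the large subunit of the protein that coats single strands, fell by 1.35 (SE 0.25, adjusted p 0.0057), while its partners Rpa2 and Rpa3 had changes of -0.04 and -0.41 that did not pass. Orc6 and the loader gene Rfc2 also passed, with both readings of day 30 at background and bounds of -0.11 and -0.70 for Orc6 and -0.10 and -0.87 for Rfc2 in the PBS and Tbx6 pairs. Orc3 and Orc4, subunits of the same origin complex as Orc1, were far above background and did not pass, at 0.48 and -0.36. Of 11 tested genes of origin firing and fork control, 6 fell and 1 rose. Topbp1 (-1.33) and Mtbp (-1.04), which help to fire origins, were among the 6 and were above background throughout. Cdc7, a kinase that fires origins, and Tipin, which helps to hold the fork together, were also among the 6. At day 30 Tipin was at background on both arrays and Cdc7 only after PBS. Cdc7 had a bound of -1.51 in the PBS pair and a difference of -0.70 in the Tbx6 pair, and Tipin had bounds of -0.68 and -0.39. Wee1, the kinase that restrains entry into mitosis, rose by 0.99 (adjusted p 0.0193), a call that was lost without either of the day 30 arrays. Over these 2 lists together 9 of 31 tested genes were called lower. Only 3 were without the PBS array of day 30 and 2 without the Tbx6 array of day 30, with day as the only term.

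Around the G1/S switch, 9 of 24 tested genes outside the 36 fell and 2 rose. Over all tested genes 12.1% were called lower and 14.2% higher. Cyclin A2 (Ccna2), the S phase partner of Cdk2, read 8.98 and 8.33 at day 7 and was at background at day 30. It fell, with bounds of -2.93 in the PBS pair and -2.51 in the Tbx6 pair. The repressor genes E2f8 and E2f7 fell to background at day 30, with bounds of -0.49 and -0.68 for E2f8 and -0.88 and -0.17 for E2f7. The inhibitor gene Cdkn1a, above background throughout, fell by 1.89. E2f3, an activator gene outside the 36, was also above background throughout and had a fitted change of -1.07 (limma adjusted p 0.0468). Its differences were -0.39 in the PBS pair and -1.74 in the Tbx6 pair. The limma fit with no filter did not call E2f3 (adjusted p 0.0819). E2f6, a repressor that does not bind pocket proteins, rose by 1.27 (SE 0.24, adjusted p 0.00706), and Tfdp2, a dimer partner of E2F factors, by 1.76 (SE 0.26, adjusted p 0.00182). Its paralog Tfdp1 had a change of -0.60 that did not pass (adjusted p 0.105). Of 9 tested histone chaperones and genes of maintenance methylation 6 fell and 0 rose, where 12.1% of all tested genes were called lower. Dnmt1 (-1.39) and Rbbp4 (-1.29) were above background on every array. Uhrf1 and Hells were at background at day 30, with bounds of -1.18 and -0.93 for Uhrf1 and -0.13 and -0.67 for Hells.

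Of 12 tested nucleotide enzymes outside the 36, 4 rose, 0 fell and 8 did not pass, where 14.2% of all tested genes were called higher. Whether the list differs from the 36 was not tested. Rrm2b, the subunit of ribonucleotide reductase that can replace Rrm2 outside S phase, read 7.73 and 7.92 at day 7 and 9.37 and 9.91 at day 30. Rrm2b rose by 1.81 (SE 0.25, adjusted p 0.00139), while Rrm2 fell. The purine synthesis gene Gart rose by 1.80, the mitochondrial serine enzyme gene Shmt2 by 1.06, and Samhd1, which breaks deoxynucleotides down, by 1.28. Of 8 tested genes of mitochondrial DNA replication 1 rose, the mitochondrial transcription factor gene Tfb2m (1.92), and 0 fell. Polg, the mitochondrial polymerase, was at background on all arrays. Of 16 mitosis genes on the arrays, 9 passed the filter and all 9 fell, where 12.1% of all tested genes were called lower. The median of the 16 was 7.37 (PBS) and 7.19 (Tbx6) at day 7, and 4.03 and 4.60 at day 30. The filter admits such genes through their day 7 readings, so nothing is read from the count. Among the 9 were Top2a (-1.76) and Mki67, which was at background after PBS at day 30. Mki67 had a bound of -4.73 in the PBS pair and a difference of -4.43 in the Tbx6 pair. Cdk1 was at background on every array.

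**Figure D3:**
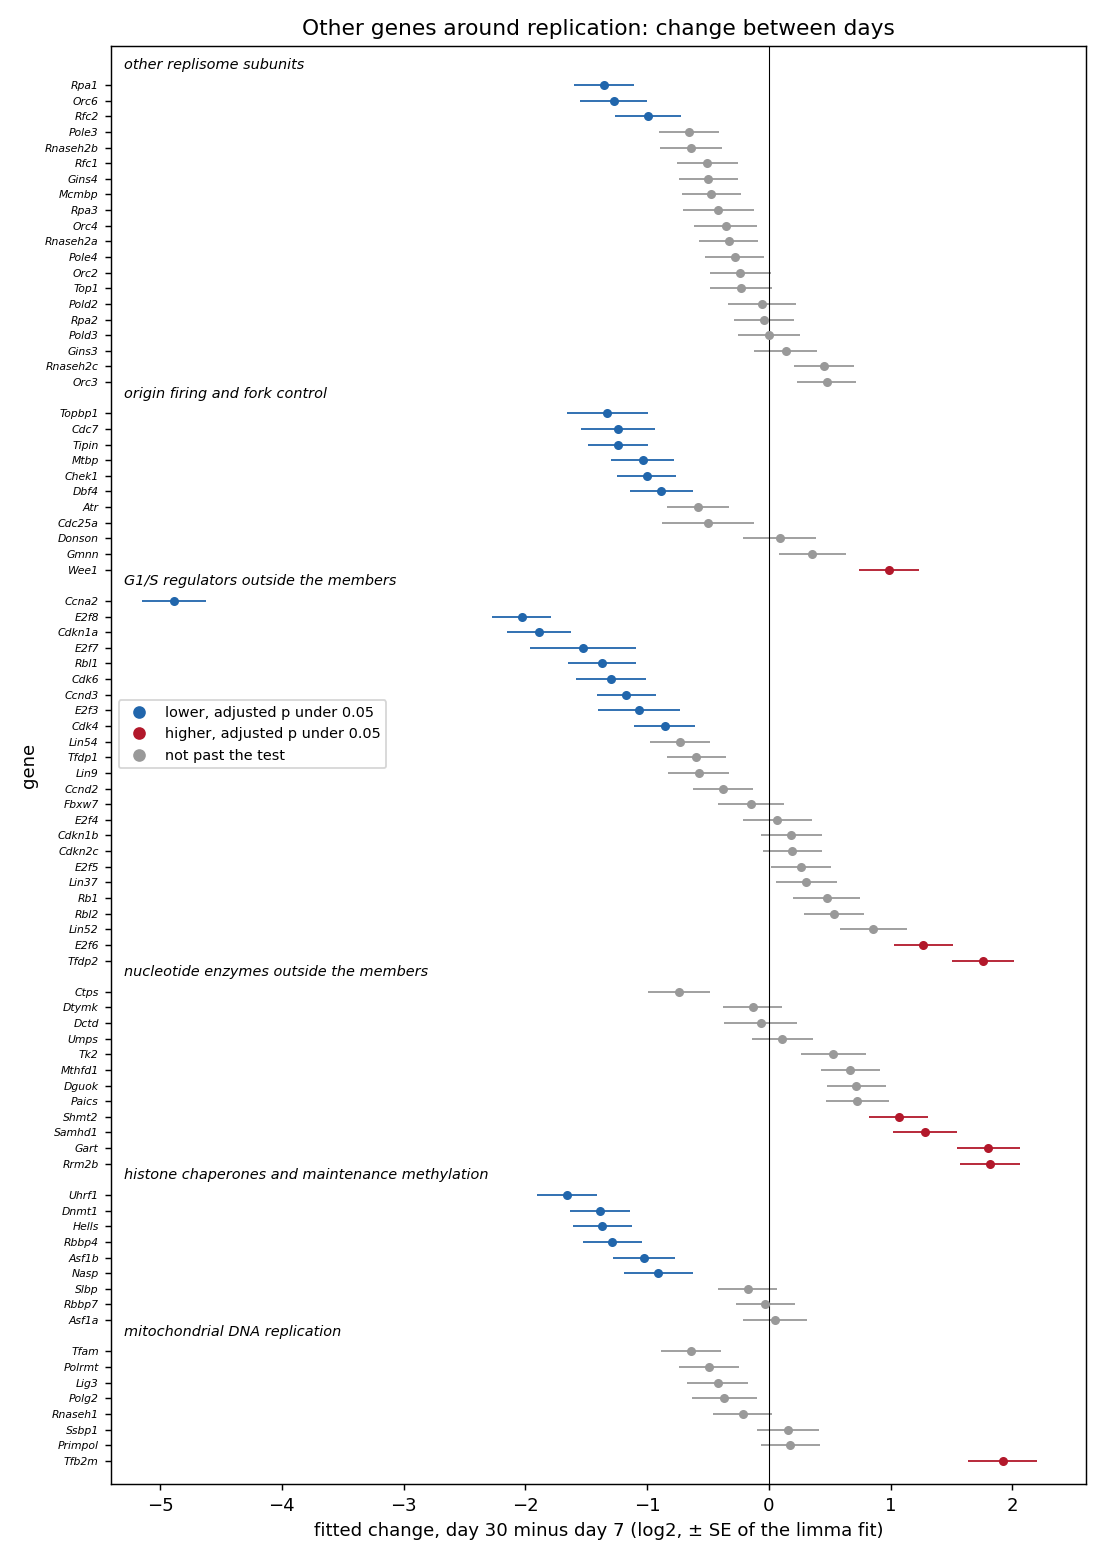
Fitted log2 change of day 30 minus day 7 (horizontal axis, points, with SE of the limma fit as bars) for the tested genes of 6 lists around replication (vertical axis). Blue genes fell, red genes rose and grey genes did not pass an adjusted p of 0.05; Rrm2b, Gart, Samhd1 and Shmt2 are the 4 nucleotide enzymes that rose, and points of genes at background at day 30, such as Ccna2, are fitted values and not measured sizes.

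Markers of the cells in the heart moved between the same days. Beside the counts below, 12.1% of all tested genes were called lower and 14.2% higher. Of 5 fibroblast markers 4 fell, with Col1a1 at -3.57, and their mean level was 14.1 on both day 7 arrays and 12.1 and 12.3 at day 30. Of 5 endothelial markers 2 fell, with mean levels of 13.4 and 13.2 at day 7 and 12.5 and 12.6 at day 30. Of 6 macrophage markers 5 rose, with mean levels of 7.17 and 6.87 at day 7 and 8.79 and 9.20 at day 30. Of 8 cardiomyocyte markers 1 fell, Myh7. Actc1 and Pln read the same on all 4 arrays, near the highest value of the table, so they cannot show a change. The median of the 8 was 19.7 to 19.8 on every array, where the highest value is 19.9. The count of 1 therefore does not show that the other markers were steady. Of 6 smooth muscle and pericyte markers 0 passed. Of 5 tested adipocyte markers and 3 tested lung epithelial markers 0 passed. Over the 6 adipocyte markers on the arrays the median change was -0.90 in the PBS pair and 1.245 in the Tbx6 pair. Over the 6 lung markers it was -1.88 and 0.64, readings at background included. Of the marker genes of erythroid cells 1 of 3 tested fell, Alas2, which read 12.52 and 10.73 at day 7 and 9.24 and 9.82 at day 30. All 5 lymphocyte markers and 5 of 7 thymocyte markers, Rag2 and Dntt included, were at background on every array. The part of these cell types in the replication result was not tested, and in whole heart RNA fewer cycling cells and less RNA per cell cannot be told apart.

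The comparison of injections asked whether replication genes differed after the Tbx6 vector. At day 7, 16 of the 35 genes were above background on both arrays, and 14 of these were lower after Tbx6, against 52.6% of all 8557 genes above background there. The 14 include Mcm3, whose readings were equal to 2 decimals. The median difference of the 16 was -0.32, against -0.03 over those 8557 genes. Over all 35 genes, readings at background included, 27 were lower, against 50.1% of all genes, and the median was -0.33, or 0.00 with readings raised to background. The differences were small: 2 of the 16 were at least 1.5-fold lower, Mcm2 (-0.74) and Rfc4 (-0.72), where 7.75% of all such genes were, and 0 were at least 1.5-fold higher, where 6.45% were. Rrm2 (0.50) and Tyms (0.28) were the genes higher after Tbx6. With the reading after Tbx6 at background, the bound for Cdc45 was -0.82 and for Rfc5 -0.64. These 4 were the tested genes with a difference of that size: 4 of 19 were lower, where 8.41% of all tested genes were, and 0 were higher, where 7.23% were. These differences come from 1 array on each side and have no test, and all 16 share the same PBS array. On that array Scgb1a1, the club cell secretory protein of the airway, read 12.89 against 3.25 after Tbx6. The mean level of the 6 lung epithelial markers was 7.13 there and 3.87 after Tbx6, with Sftpc, Sftpb and Sftpa1 at background on both. Adipocyte markers averaged 10.2 and 8.40, erythroid markers 9.07 and 8.51, macrophage markers 7.17 and 6.87, and mitosis genes 7.17 and 7.11. Of the 16 mitosis genes 9 were higher after Tbx6, with a median difference of 0.27, and of the 9 above background on both arrays 3 were lower, with a median of 0.28. The part of these genes in the lower replication readings was not tested.

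At day 30 only 7 of the 35 were above background on both arrays, and 3 of them were lower after Tbx6, where 49.5% of all such genes were. Their median difference was 0.05. Over all 35 genes, readings at background included, 20 were lower, against 48.8% of all genes, and 14 were lower on both days, against 24.3%. At day 30 both readings were at background for 25 of the 35, so most of these signs are not measured differences. Rrm1 was the 1 gene of the 7 with a difference of at least 1.5-fold, 0.93 higher after Tbx6, where 6.02% of all such genes were higher by that much, and 0 were lower by that much, where 5.33% were. The differences were 0.18 for Pcna, 0.28 for Cdk2, -0.18 for Mcm6 and -0.32 for Tyms. Of the 19 tested genes, 2 had deposited values at least 1.5-fold higher after Tbx6, where 7.13% of tested genes had. They were Rrm1 and Pola2, but Pola2 was at background after PBS and its bound is below 1.5-fold, so 1 remained with readings raised to background. Mcm2 and Rfc5 had deposited values at least 1.5-fold lower, where 6.06% of tested genes had, but both readings of each were at background, so no difference was measured in them. Prim1 and Pola2, at background after PBS, were higher by at least 0.06 and 0.31. The day 7 and day 30 differences share no array. Of the 7 genes measured on both days, Mcm6 and Rfc4 were lower after Tbx6 on each, and Cdk2, Mcm4, Pcna and Rrm1 were lower at day 7 and higher at day 30. Tyms was higher at day 7 and lower at day 30. On the day 30 arrays of PBS and Tbx6, adipocyte markers averaged 8.53 and 10.1, macrophage markers 8.79 and 9.20 and erythroid markers 8.10 and 7.69. The 16 mitosis genes averaged 4.49 and 4.89, with both readings at background for 10 of them. The part of these genes in the day 30 differences was not tested.

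With both days in the additive limma model, 0 of the 19 tested genes passed for injection, where 0.0% of all 9753 genes did. At an unadjusted limma p under 0.05 there were 3 of the 19, where 421 of all 9753 tested genes were. The 3 were Mcm2 (fitted difference -0.84, SE 0.24, p 0.00797), Rfc5 (-0.71, SE 0.24, p 0.0179) and Cdc45 (-0.69, SE 0.29, p 0.0443). Each had a Benjamini-Hochberg adjusted p of 1 by limma. At day 30 both readings of these 3 genes were at background. The change between days was larger in the PBS pair than in the Tbx6 pair for 23 of the 35 genes, where 50.8% of all genes had the lower value in the PBS pair. The medians over the 35 were -1.11 and -0.88. Readings at background are included in this count and in the medians. Both readings were at background for 15 of the 35 genes in the PBS pair and for 19 in the Tbx6 pair. With 1 array per group the difference in change between the pairs was not tested.

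**Figure D4:**
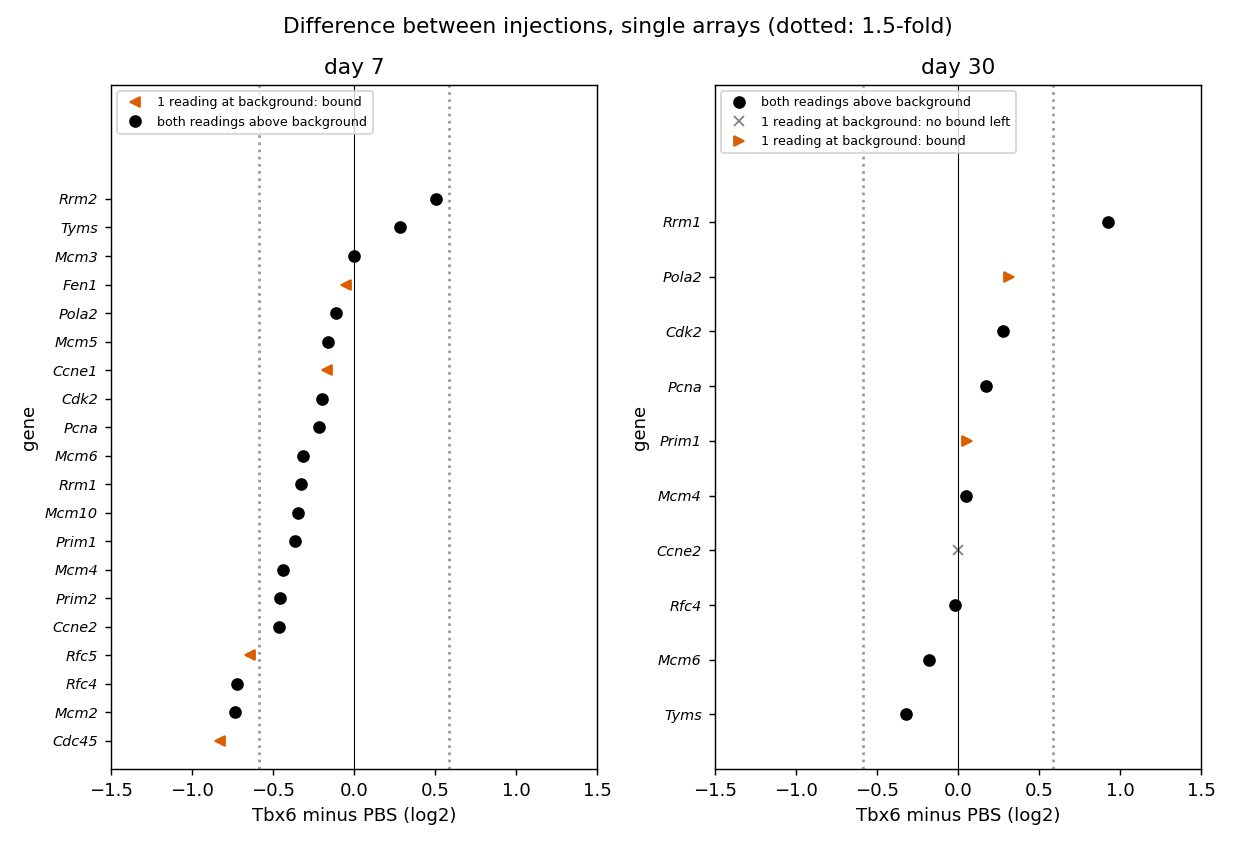
Log2 difference of Tbx6 minus PBS (horizontal axis) at day 7 (left) and day 30 (right) for the replication genes (vertical axis) with at least 1 reading above background. Black circles have both readings above background, orange triangles are bounds and the grey cross has no bound left; at day 7 most circles lie left of 0, and at day 30 they lie on both sides.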

How the data were processed

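Heart RNA of 4 mouse groups was measured on 1 Clariom S array each. The deposited values are SST-RMA output of Affymetrix Expression Console 1.4, per the labels' design text. The authors' values are read as log2; the base is not stated and was inferred from their range. Of 28846 probe sets, 19572 carried 1 gene symbol, 0 several, 2634 are unnamed here and 6640 were controls. The probe set with the highest mean was kept for each gene, which left 19505 genes.

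Differences between single arrays have no test. Changes were tested with limma 3.58.1 in R 4.3.3 (lmFit and eBayes, two-sided, day and injection as additive terms, 4 arrays, 1 residual degree of freedom), adjusted by Benjamini-Hochberg over the 9753 genes with a mean of at least 5.30. The fit was tested on simulated data. P-values rest on 1 residual degree of freedom per gene and mostly on the spread of other genes. They do not measure the spread between replicates of a group. The array number limits precision. Background was the highest of 23 background probe sets per array. Promoters came from RefSeq (GRCm38.p6). Python 3.11.15, pandas 2.3.3, numpy 2.4.6 and matplotlib 3.10.9 were used.

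All 36 genes were named, with array values for those past the day test or 1.5-fold apart between injections, and up to 4 genes per other list and direction. Mcm5, Fen1, E2f3, the paralogs and partners that did not pass, and some cell markers were added after their values were seen. Genes, lists and tests were chosen with earlier results of these data known. The alternatives were another normalisation, centring, filter, floor, probe set rule, model, variance prior and size rule, and each array left out.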

Additional observations from a re-analysis of the deposited data

How the results depend on the processing

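Of the 19 tested genes, the 11 called lower between days gave 11 under quantile or median scaling, averaged probe sets, an intensity trend and day as the only term. The count was 12 with a filter on readings above background, 9 with readings raised to background (9128 genes tested), 17 of 35 with no filter, and 7 to 12 with 1 array left out, while 0 were called higher in each. The median change stayed between -1.03 and -0.83 with 1 array left out. It was 0.00 with readings raised to background, meaning 6.05 on every array, where readings at or below 6.05 tie. With 1 array left out, the change of Cdc45 ranged from -1.03 to 0.16 and that of Ccne2 from -0.41 to 0.049; both changed sign without the PBS array of day 7, where neither was called. Among other replication genes 2 to 8 were called lower and 0 to 1 higher with 1 array left out. Genes at least 1.5-fold lower after Tbx6 at day 7 were 4 of 19, but 8 with no filter, 2 with readings raised to background and 1 at 2-fold, and 0 higher, but 1 with no filter. The day 7 median of -0.33 became 0.00 with readings raised to background. At day 30, 2 were lower, but 4 with no filter, 0 with readings raised and 0 at 2-fold, and 2 higher, but 1 with readings raised and 0 at 2-fold. For injection, 0 of the tested replication genes passed in the fits run, all on the full 4 arrays. With 1 array per group there were no replicates to pair. Injection entered the model as a term, so days were compared within each injection.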
